A study of Mus musculus with 8 samples.

Results

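Metal handling genes of the liver were followed in 8 libraries of aged obese female mice, through 8 genes chosen by name out of 56884 in the count tables. They are the metallothionein genes Mt1 and Mt2, the metal sensor gene Mtf1, the importer genes Slc39a14, Slc39a8 and Slc39a4, and the exporter genes Slc30a1 and Slc30a10. The choice used gene names and not measured values, but it was made with earlier results of these data known. All mice were C57BL/6J and were fed a diet that supplied 45% of energy as lipids for 4 months, and the 3 mice of the DIO group stayed on it until 18 months of age. After those 4 months the 5 mice of the DIO + DHA group received, to the same age, a version with 15% of its lipids by weight exchanged for a fish oil concentrate, of which each g held 683.4 mg of docosahexaenoic acid (DHA). All of them fasted overnight before the livers were taken, and both diets carried the same tocopherols, so the groups differ by the concentrate as a whole, with its other n-3 fatty acids. Each mouse gave 1 library, all labelled as the same batch, of poly(A) RNA read mostly from the 3′ end, with 1723800 to 5690347 counts on genes and the fewest in DIO replicate 1. Levels are given as CPM (counts of a gene scaled to the size of its library, with TMM factors) and are compared between libraries for the same gene, not between genes.

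The tissue label was checked against 10 hepatocyte markers, all of which were detected, and their summed level was 80155 to 85308 CPM in the DIO libraries and 83470 to 97709 CPM in the DIO + DHA libraries. Markers of other tissues moved with the groups. Summed over 12 skeletal muscle markers, the level was 33.7 to 37.7 CPM in DIO and 1311 to 1394 CPM in DIO + DHA, and 12 markers of stratified squamous epithelium summed to 30.5 to 36.6 and 82.9 to 90.9 CPM, with Krt1 at 0 in every library. In the other direction, 12 macrophage and Kupffer cell markers summed to 870 to 974 CPM in DIO and 502 to 537 CPM in DIO + DHA. In bulk RNA, fewer cells of a type and less RNA per cell cannot be told apart.

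Metallothioneins are small cysteine-rich proteins of the cytosol that bind zinc and copper, and in the liver they are induced by zinc, by glucocorticoids and by inflammatory cytokines. MTF1 is the zinc-sensing transcription factor that binds metal response elements in the promoters of metallothionein genes and of the zinc exporter gene Slc30a1. Proteins of the SLC39 (ZIP) family bring zinc or manganese into the cytosol, and proteins of the SLC30 (ZnT) family carry metal out of it. ZIP14, the product of Slc39a14, takes up manganese, zinc and non-transferrin-bound iron into hepatocytes and is induced by interleukin 6. The product of Slc30a10 exports manganese, and loss of either transporter in humans disturbs manganese balance.

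The promoters of Mt1, Mt2 and Slc30a10 are shown first, because these genes changed with the diet and the known sensor binds a short motif of this kind. The RefSeq table of promoter windows (build GRCm38.p6, 250 bases before to 50 after an annotated start) held 6 of the 8 genes. It held no window of Slc39a14 or Slc39a4, so these promoters were not searched. The stretches printed run from 250 bases before to 30 after the start, at chr8:94178839-94179118 for Mt1, at chr8:94172368-94172647 for Mt2 and at chr1:185454598-185454877 for Slc30a10, all on the plus strand. Capitals mark matches to the core of the metal response element, TGCACNC or TGCGCNC, on either strand.
Mt1: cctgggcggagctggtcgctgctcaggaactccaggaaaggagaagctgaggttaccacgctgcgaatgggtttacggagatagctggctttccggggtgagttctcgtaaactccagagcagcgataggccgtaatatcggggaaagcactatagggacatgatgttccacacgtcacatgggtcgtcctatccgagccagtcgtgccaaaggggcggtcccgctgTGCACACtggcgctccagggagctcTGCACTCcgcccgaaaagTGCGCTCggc
Mt2: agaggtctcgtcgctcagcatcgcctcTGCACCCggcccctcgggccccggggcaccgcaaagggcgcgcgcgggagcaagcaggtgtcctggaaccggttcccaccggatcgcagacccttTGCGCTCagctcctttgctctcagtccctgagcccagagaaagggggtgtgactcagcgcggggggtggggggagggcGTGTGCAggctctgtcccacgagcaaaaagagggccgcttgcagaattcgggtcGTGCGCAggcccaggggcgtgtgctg
Slc30a10: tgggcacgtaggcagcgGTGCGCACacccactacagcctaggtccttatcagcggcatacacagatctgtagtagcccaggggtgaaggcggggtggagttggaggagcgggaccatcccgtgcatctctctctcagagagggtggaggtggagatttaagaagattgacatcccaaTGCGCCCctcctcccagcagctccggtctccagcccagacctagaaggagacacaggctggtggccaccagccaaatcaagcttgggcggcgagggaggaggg

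Counting overlapping matches once, the metal response element core occurred 4 times in the Mt2 window and 3 times in the Mt1 window. It occurred 2 times each in those of Slc30a10 and Slc30a1, while the Mtf1 window held none. Slc39a8 has 2 annotated starts, and only the window of the downstream start held a match. Among all 32841 RefSeq windows of that length, 25.7% held at least 1 match, 6.14% at least 2, 1.31% at least 3 and 0.295% at least 4. A match to the core of the antioxidant response element, TGACNNNGC on either strand, was present in the windows of Mt2, Slc30a1 and the upstream start of Slc39a8, and in 12.4% of all windows. None of the 6 members with a window held the STAT motif TTCNNNGAA in it. That motif reads the same on both strands and was in 8.3% of all windows. Slc39a14 and Slc39a4 had no window and were not searched. All of these counts are matches of letters in a fixed window and say nothing on whether a factor bound there. Bases outside a window were not searched, so a window without a match does not show that the gene lacks the element. The RefSeq start was not checked against the start used in these livers.

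**Figure D1:**
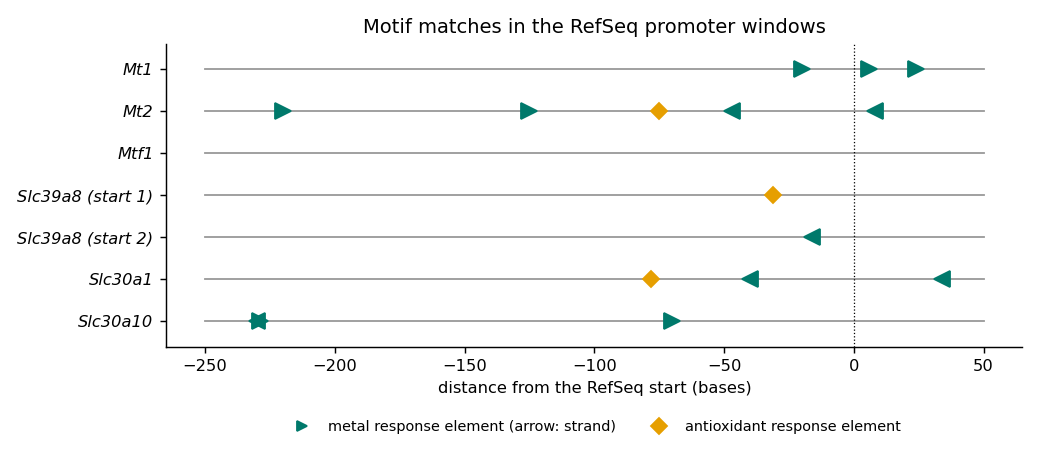
Position of motif matches in the RefSeq promoter windows of the members, with the distance from the annotated start in bases on the x axis and 1 line per window. Triangles are metal response element cores pointing along their strand, diamonds are antioxidant response element cores, and the 2 overlapping triangles of Slc30a10 were counted once. Within these windows, Mt2 holds 4 metal response element cores and Mt1 holds 3.

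The metallothionein genes and the importer gene Slc39a14 were lower in the DIO + DHA livers, and the manganese exporter gene Slc30a10 and the importer gene Slc39a4 were higher. All 8 members passed the filter on low counts. At an adjusted p under 0.05 by edgeR's quasi-likelihood test, 5 of the 8 were called, against 15.2% of the 12412 genes tested. Of these, 3 were lower, where 7.28% of all tested genes were, and 2 were higher, where 7.89% were. The libraries of the groups did not overlap in 6 of the 8 members, against 18.4% of all tested genes. With limma-voom and a log-odds B above 0, the threshold of the study's methods, 4 of the 8 were called, against 6.93% of all tested genes. The median log2 fold change over all tested genes was 0.00, so the members' values are read against a centre at no change.

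**Figure D2:**
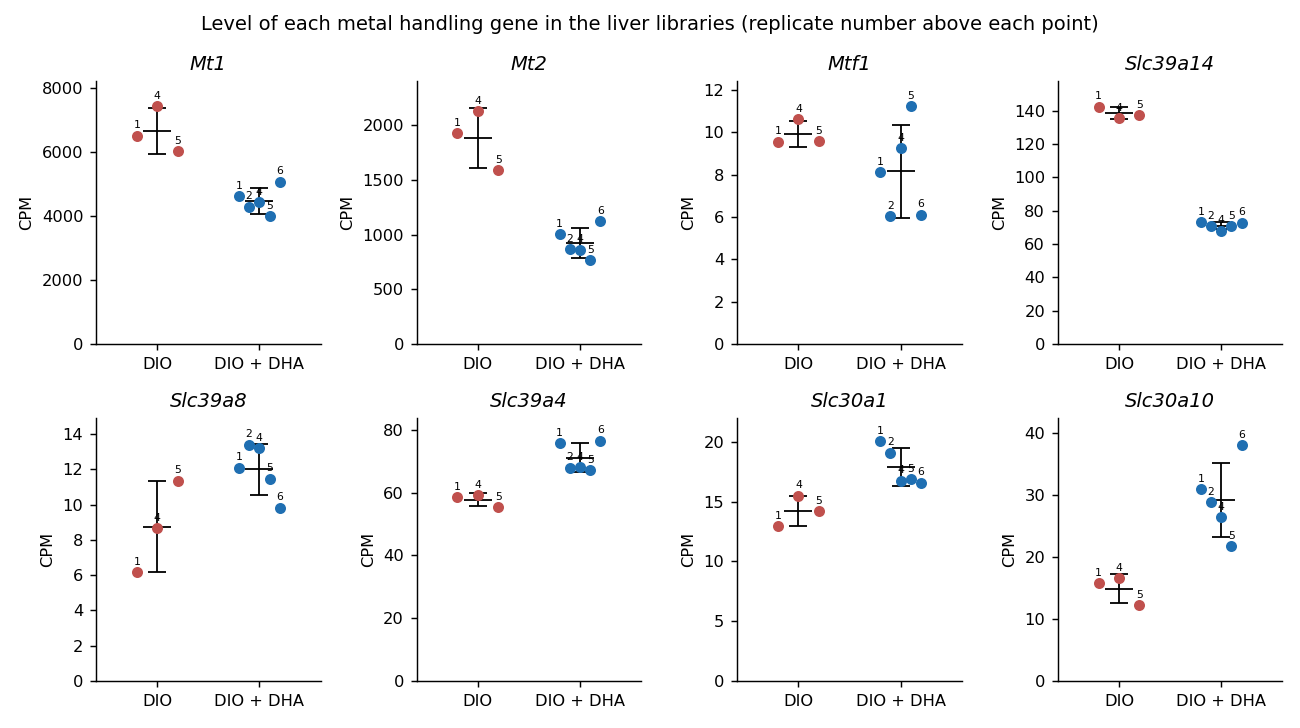
Level of each of the 8 members in CPM (y axes from 0, a separate scale for each gene) in the 3 DIO libraries and the 5 DIO + DHA libraries. Points are libraries with their replicate number, horizontal marks are group means and bars are SD. Slc39a14 lies at 135.6 to 142 CPM in DIO and 68.1 to 73.0 CPM in DIO + DHA, and the groups overlap only in Mtf1 and Slc39a8.

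Mt1 (ENSMUSG00000031765.9, GRCm39 chromosome 8, 94905710 to 94906955, plus strand) was at 6511, 7434 and 6033 CPM in DIO replicates 1, 4 and 5. In DIO + DHA replicates 1, 2, 4, 5 and 6 it was at 4631, 4295, 4429, 3989 and 5076 CPM. Every DIO + DHA library lay below every DIO library, with means of 4484 ± 405 CPM (SD, n = 5) and 6659 ± 712 CPM (SD, n = 3). Mt1 fell by 0.57 on the log2 scale (standard error 0.07, 95% interval -0.71 to -0.44, adjusted p = 7.86e-09 by edgeR's quasi-likelihood test). These values rest on 11573 to 41228 counts per library.

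Mt2 (ENSMUSG00000031762.8, chromosome 8, 94899292 to 94900196, plus strand) lies just upstream of Mt1 on the same strand. Its level was 1926, 2128 and 1591 CPM in DIO replicates 1, 4 and 5, and 1007, 869, 862, 765 and 1120 CPM in DIO + DHA replicates 1, 2, 4, 5 and 6. The groups did not overlap, and the lowest DIO library was replicate 5 while the highest DIO + DHA library was replicate 6, as for Mt1. Mt2 fell by 1.02 on the log2 scale, from a mean of 1882 ± 272 CPM (SD, n = 3) to 925 ± 139 CPM (SD, n = 5). The standard error was 0.14, the 95% interval -1.35 to -0.69 and the adjusted p = 0.00179 by edgeR's quasi-likelihood test. The libraries of a group spread more for Mt2, with a coefficient of variation of 14.4% in DIO and 15.1% in DIO + DHA, than for Mt1 (10.7% and 9.03%), and the robust fit gave Mt2 7.41 degrees of freedom against 39.3 for Mt1. Only 2.59% of all tested genes had a log2 fold change at or below that of Mt2, and 8.48% at or below that of Mt1.

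The count of Mt2 comes from part of its transcript. An antisense gene, Gm45774, covers 432 of the 588 exon bases of Mt2, or 73.5%, and reads that touch genes on both strands were left uncounted because counting did not use strand. The 156 bases that belong to Mt2 alone are the last ones, from 94900041 to 94900196, on the side that the library enriches. Gm45774 itself held 1 to 10 counts per library and did not pass the test (log2 fold change -0.06, adjusted p = 0.959 by edgeR). So the level of Mt2 leaves out reads from the shared stretch. Antisense genes also shared 8.10% of the exon bases of Mtf1, 8.92% of those of Slc30a1 and 8.19% of those of Slc30a10, and the other members shared none.

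Together, Mt1 and Mt2 took 0.755% to 0.960% of all counts in the DIO libraries and 0.480% to 0.595% in the DIO + DHA libraries. The paralogs did not change by the same factor. The ratio of Mt1 to Mt2 counts, which no scaling of the library can alter, was 3.38, 3.49 and 3.79 in DIO replicates 1, 4 and 5. It was 4.60, 4.94, 5.14, 5.21 and 4.53 in DIO + DHA replicates 1, 2, 4, 5 and 6, above every DIO library. On the log2 scale the mean ratio was 1.83 ± 0.09 (SD, n = 3) and 2.29 ± 0.09 (SD, n = 5). The difference of 0.46 had p = 0.0179 by exact permutation of the group labels (two-sided), and no smaller p is possible with 3 and 5 libraries. Whether the share of Mt2 reads inside its own last 156 bases differed between the groups was not tested.

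**Figure D3:**
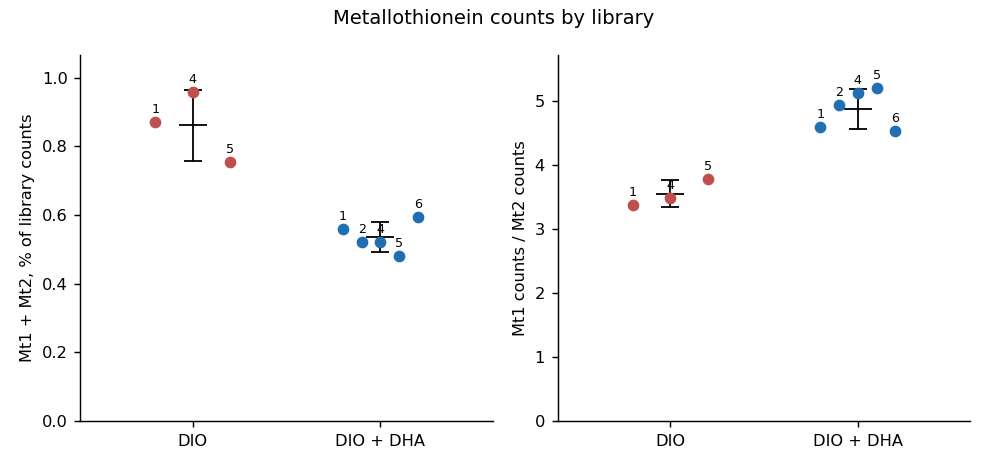
Left, counts of Mt1 and Mt2 together as a percentage of all counts of each library, and right, the ratio of Mt1 to Mt2 counts. Points are libraries with their replicate number, horizontal marks are group means and bars are SD, and the axes start at 0. The DIO + DHA libraries lie lower on the left (0.480% to 0.595%) and higher on the right (4.53 to 5.21) than every DIO library.

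Mtf1 (ENSMUSG00000028890.14, chromosome 4, 124695897 to 124743593, plus strand) encodes the sensor that binds the metal response element. It was at 9.56, 10.6 and 9.58 CPM in DIO replicates 1, 4 and 5 and at 8.13, 6.03, 9.28, 11.2 and 6.11 CPM in DIO + DHA replicates 1, 2, 4, 5 and 6. DIO + DHA replicate 5 was the highest library of all, so the groups overlapped. The log2 fold change of -0.29 (standard error 0.21, 95% interval -0.70 to 0.12) did not pass (adjusted p = 0.410 by edgeR's quasi-likelihood test). Each library held 17 to 59 counts of Mtf1, and the log2 fold change of Mt1 lies inside that interval. Without DIO + DHA replicate 5 the value was -0.45 (adjusted p = 0.177 by edgeR).

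Among the importers, Slc39a14 was lower and Slc39a4 higher in DIO + DHA. Slc39a14 (ENSMUSG00000022094.16, chromosome 14, 70540918 to 70588874, minus strand) was at 142, 135.6 and 137.5 CPM in DIO replicates 1, 4 and 5. In DIO + DHA replicates 1, 2, 4, 5 and 6 it was at 73.0, 70.7, 68.1, 70.7 and 72.9 CPM. Libraries of the same group were close together, with a coefficient of variation of 2.51% in DIO and 2.81% in DIO + DHA, and the gap between the groups was far wider than either range. Slc39a14 fell by 0.95 on the log2 scale, to 0.516 of the DIO level (standard error 0.08, 95% interval -1.12 to -0.79, adjusted p = 1.39e-14 by edgeR's quasi-likelihood test). A log2 fold change at or below that of Slc39a14 was seen in 3.15% of all tested genes.

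Slc39a4 (ENSMUSG00000063354.8, chromosome 15, 76496583 to 76501584, minus strand) encodes ZIP4, best known as the zinc importer of the intestine. Its level was 58.5, 59.3 and 55.4 CPM in DIO replicates 1, 4 and 5 and 75.8, 68.0, 68.1, 67.2 and 76.7 CPM in DIO + DHA replicates 1, 2, 4, 5 and 6. All 5 DIO + DHA libraries were above the 3 DIO libraries, and the means were 71.2 ± 4.63 CPM (SD, n = 5) and 57.7 ± 2.09 CPM (SD, n = 3). It rose 1.24-fold (log2 fold change 0.31, standard error 0.09, 95% interval 0.12 to 0.50), with adjusted p = 0.0143 by edgeR's quasi-likelihood test. The call was lost without DIO replicate 5 (adjusted p = 0.0804), without DIO + DHA replicate 1 (adjusted p = 0.0559) and at a log-odds B above 0.

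Slc39a8 (ENSMUSG00000053897.16, chromosome 3, 135531040 to 135594333, plus strand) encodes ZIP8, a close relative of ZIP14 that also carries manganese and zinc. It was at 6.19, 8.66 and 11.4 CPM in DIO replicates 1, 4 and 5 and at 12.1, 13.4, 13.2, 11.5 and 9.83 CPM in DIO + DHA replicates 1, 2, 4, 5 and 6. DIO replicate 5 lay above DIO + DHA replicate 6, and the DIO group spread widely on 11 to 64 counts. Its log2 fold change of 0.34 (standard error 0.19, 95% interval -0.04 to 0.72) did not pass (adjusted p = 0.268 by edgeR's quasi-likelihood test). Without DIO replicate 5 it was 0.59 (adjusted p = 0.108 by edgeR).

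Of the exporters, Slc30a10 (ENSMUSG00000026614.8, chromosome 1, 185187045 to 185200959, plus strand) was at 15.8, 16.6 and 12.2 CPM in DIO replicates 1, 4 and 5. It was at 30.9, 28.8, 26.4, 21.8 and 38.0 CPM in DIO + DHA replicates 1, 2, 4, 5 and 6, above the DIO range in every library. It rose 2.01-fold, with means of 29.2 ± 5.99 CPM (SD, n = 5) in DIO + DHA and 14.9 ± 2.31 CPM (SD, n = 3) in DIO. The log2 fold change was 1.01 (standard error 0.16, 95% interval 0.69 to 1.32, adjusted p = 1.95e-06 by edgeR's quasi-likelihood test). Each library held 28 to 174 counts of it.

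Slc30a1 (ENSMUSG00000037434.8, chromosome 1, 191638879 to 191645359, plus strand) encodes ZnT1, the zinc exporter of the cell surface. Its level was 12.9, 15.5 and 14.2 CPM in DIO replicates 1, 4 and 5 and 20.0, 19.1, 16.8, 16.9 and 16.6 CPM in DIO + DHA replicates 1, 2, 4, 5 and 6. The groups did not overlap, yet the log2 fold change of 0.30 (standard error 0.15, 95% interval -0.01 to 0.61) did not pass (adjusted p = 0.209 by edgeR's quasi-likelihood test). Of the members known as targets of MTF1, Mt1 and Mt2 were called lower, and Slc30a1 had a positive value that was not called. The part of MTF1 in these values was not tested.

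The manganese importer gene Slc39a14 and the manganese exporter gene Slc30a10 changed in opposite directions, by -0.95 and 1.01 on the log2 scale. Within each group, however, the libraries came in the same order for Slc30a10 as for Mt2, which changed the other way between groups. This was picked out after the values were seen. From highest to lowest, both genes ran through DIO replicates 4, 1 and 5 and through DIO + DHA replicates 6, 1, 2, 4 and 5. Mt1 and Slc39a4 shared the order in DIO and differed from it in DIO + DHA only by the exchange of replicates 2 and 4. The highest library of DIO + DHA held 1.74 times the Slc30a10 level and 1.46 times the Mt2 level of the lowest, while Slc39a14 varied by 1.07 times. With 74 to 174 counts of Slc30a10 in these 5 libraries, each level carries counting error of its own. Mt2 was nearly tied in DIO + DHA replicates 2 and 4 (869 and 862 CPM). A like order was also found outside the metal handling genes. Alb ran through replicates 4, 1 and 5 in DIO and 6, 2, 1, 4 and 5 in DIO + DHA. Orm1 had the order of Mt1 in DIO + DHA, but ran 4, 5 and 1 in DIO. The shared order was not tested.

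**Figure D4:**
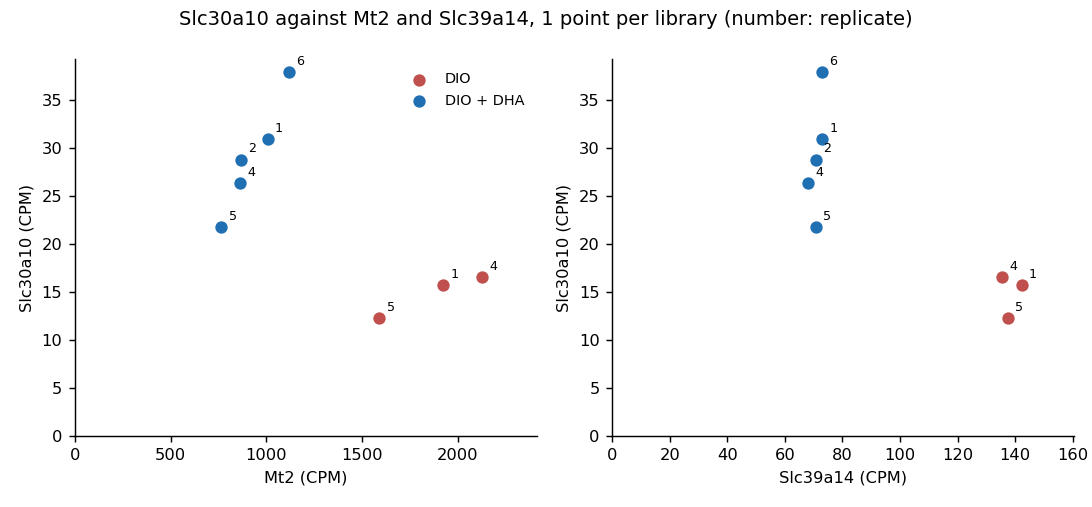
Slc30a10 in CPM (y axis) against Mt2 (left) and Slc39a14 (right) in CPM, with 1 point per library and its replicate number. The groups lie apart in opposite directions, with Slc30a10 at 21.8 to 38.0 CPM in DIO + DHA and 12.2 to 16.6 CPM in DIO, while within each group the libraries with more Mt2 also held more Slc30a10 and Slc39a14 hardly varied.

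The other metal handling genes were given by a list of 32, of which 24 passed the filter. Of these, 1 was higher and 2 were lower by edgeR's quasi-likelihood test, or 3 of 24 called beside 15.2% of all tested genes, and the median log2 fold change was -0.06. The higher gene, Mt4, is in this count although it passed the filter only through the DIO + DHA libraries, so its call is a description. None of the 7 tested genes among the other Slc39 transporters and none of the 5 among the other Slc30 transporters was called by edgeR, and none of these 12 had an unadjusted p under 0.05. Their log2 fold changes ran from -0.45 in Slc39a1 to 0.36 in Slc39a13. Slc39a1 stood at 44.4 CPM in DIO replicate 1 and at 12.1 to 14.8 CPM in the other 2 DIO libraries, and Sod1 was also far higher in that library, at 1252 CPM against 586 and 593 CPM.

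The called genes of that list were Mt4, Slc11a2 and Cp. Slc11a2, which encodes the divalent metal carrier DMT1, was at 25.7 ± 1.84 CPM (SD, n = 3) in DIO and 18.7 ± 3.63 CPM (SD, n = 5) in DIO + DHA, a fall of 0.49 on the log2 scale (adjusted p = 0.0129 by edgeR). Cp, the copper-carrying ferroxidase ceruloplasmin and an acute phase protein, went from 722 ± 9.06 to 637 ± 23.3 CPM, and fell by 0.18 on the log2 scale (adjusted p = 0.0411 by edgeR). Slc11a2 and Cp both lost the call without DIO replicate 4 and without DIO replicate 5, and Mt4 was then the 1 called gene. The copper importer gene Slc31a1 just missed the threshold, at 159 ± 7.79 CPM (SD, n = 3) in DIO and 137 ± 7.11 CPM (SD, n = 5) in DIO + DHA, with groups that did not overlap (log2 fold change -0.21, adjusted p = 0.0507 by edgeR). The chaperone genes Atox1 (log2 fold change -0.05) and Ccs (-0.01) were not called.

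Mt4 is a metallothionein gene of stratified squamous epithelium and not of hepatocytes. It had 0, 1 and 0 counts in DIO replicates 1, 4 and 5 and 20, 26, 17, 21 and 22 counts in DIO + DHA replicates 1, 2, 4, 5 and 6. The ratio of the summed rates was 69.8, with a 95% exact counting interval of 12.3 to 2783. Mt4 passed the filter only through the DIO + DHA libraries, so its call is a description and not a test, and a filter of at least 10 counts in every library removed it, which left 0 genes of that list higher and 3 lower among 19. Krt4, Krt13 and Lgals7, markers of squamous epithelium, had 0 or 1 count in each DIO library and 20 to 134 counts in each DIO + DHA library, and they too passed the filter only through DIO + DHA. Of the other tested markers of that list, Sfn was called higher on at most 10 counts per library, and Dsp and Krt10 were not called (log2 fold change 0.10 and 0.29). The part of that tissue in the Mt4 counts was not tested. Mt3, a metallothionein gene of the brain, had no count in any library.

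**Figure D5:**
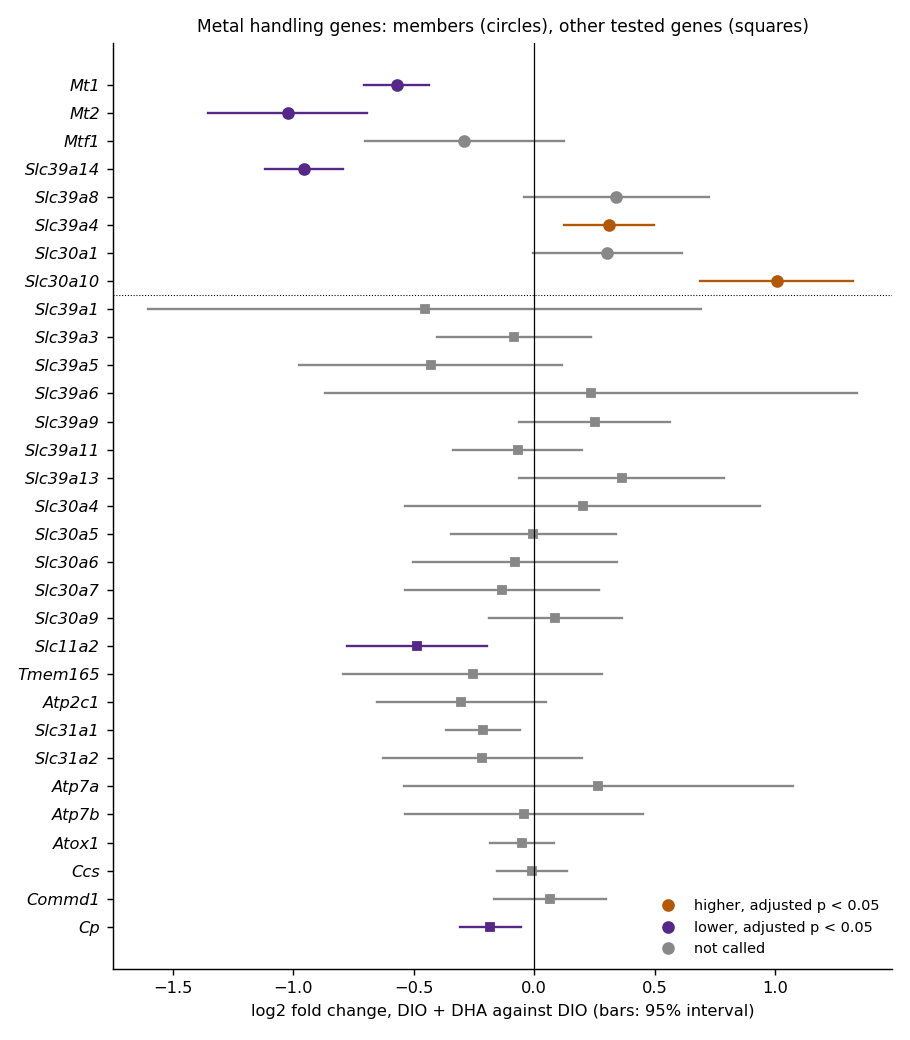
Log2 fold change of the 8 members (circles, above the dotted line) and of the other tested metal handling genes (squares) between DIO + DHA and DIO, with 95% intervals from the edgeR fit. Orange marks genes called higher, purple genes called lower and grey genes not called, and Mt4 is left out because its value of 5.68 lies off the scale. Among the other genes shown only Slc11a2 and Cp are called.

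Enzymes that bind zinc or manganese were called in both directions. Of 16 listed, all tested, 3 were higher and 2 lower, beside 7.89% and 7.28% of all tested genes, and their median was -0.05 on the log2 scale. Bhmt, the zinc enzyme that makes methionine from betaine, was at 2308 ± 47.8 CPM (SD, n = 3) in DIO and 5553 ± 183 CPM (SD, n = 5) in DIO + DHA and rose by 1.27 on the log2 scale (adjusted p = 6.23e-25 by edgeR's quasi-likelihood test). The carbonic anhydrase gene Car2 and the alkaline phosphatase gene Alpl also rose, by 1.06 and 0.65, and the alcohol dehydrogenase gene Adh1 and the sorbitol dehydrogenase gene Sord fell by 0.38 and 0.46 on the log2 scale. The groups overlapped in Alpl (adjusted p = 0.0274 by edgeR), with DIO replicate 1 at 7.88 CPM and DIO + DHA replicate 4 at 7.85 CPM. The manganese enzyme genes Arg1 and Sod2 had log2 fold changes of -0.01 and 0.00 and were not called.

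Gene groups that respond to known inducers of metallothioneins were read beside the members. They were listed with their behaviour in these data partly known. The acute phase and interleukin 6 list had 20 of 23 genes lower and 1 higher, beside 7.28% and 7.89% of all tested genes. Its median was -0.69 on the log2 scale. Its summed level was 54070 to 59145 CPM in DIO and 34003 to 35346 CPM in DIO + DHA. Hp, Fgb, Fgg and Hpx were its most abundant members and fell by 0.54, 0.51, 0.51 and 1.00 on the log2 scale. Within this list, the interleukin 6 receptor gene Il6ra and the transcription factor gene Stat3 fell by 0.65 and 0.74, and Il6st (-0.04) was not called, nor was Socs3 (log2 fold change -0.49, adjusted p = 0.248 by edgeR). The exception was Hamp, the gene of the iron hormone hepcidin, which rose by 1.57 on the log2 scale.

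The glucocorticoid response list had 6 of 11 genes lower and 2 higher, beside 7.28% and 7.89% of all tested genes, with a median of -0.37 on the log2 scale and a summed level of 1664 to 1702 CPM in DIO and 1150 to 1249 CPM in DIO + DHA. Errfi1, Klf9 and Fkbp5 fell by 0.90, 0.37 and 1.02 on the log2 scale, and the higher genes were Tat (0.24) and Zbtb16 (0.97). The glucocorticoid receptor gene Nr3c1 was not called (log2 fold change -0.23, adjusted p = 0.167 by edgeR). Of the NRF2 list, which stands for oxidative stress, 9 of 10 genes were tested, and 3 were lower and 1 higher beside the same shares of all tested genes, with a summed level of 1553 to 1706 CPM in DIO and 1536 to 1643 CPM in DIO + DHA. The lower genes had log2 fold changes of -0.27 (Gclm), -1.23 (Hmox1) and -2.13 (Gsta1, at 1.84 CPM or less in the group means), and the higher gene Srxn1 had 0.32. Gsta1 held 4 to 8 counts in the DIO libraries and 0 to 3 in the DIO + DHA libraries. It passed the filter only through DIO, so its call is a description and not a test. Their part in the level of the metallothioneins was not tested.

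Of the markers of other liver cell types, 10 of the 12 macrophage and Kupffer cell markers were lower and Marco was higher, where 15.2% of all tested genes were called in either direction. The remaining lists had fewer calls. Of 10 stellate cell markers, Colec11, Rgs5 and Lrat were lower and Des, also a gene of muscle, was higher, and their sum was 339.9 to 347 CPM in DIO and 299 to 319 CPM in DIO + DHA. Among 10 endothelial markers Clec4g and Lyve1 were lower, with sums of 196 to 213 and 143 to 167 CPM. T cell and B cell markers had Cd3g and Cd8a lower among 5 tested, with sums of 22.7 to 23.6 and 12.5 to 16.8 CPM, and cholangiocyte markers had Sox9 higher among 6 tested, with sums of 58.8 to 64.1 and 59.0 to 71.0 CPM. Cd8a, with 7 to 22 counts in DIO and 1 to 7 in DIO + DHA, passed the filter only through DIO. Its call is therefore a description and not a test. Of the 10 hepatocyte markers, Apoa1 and Tat were higher and Cyp2e1 and Hnf4a lower. The part of these cells in the changes of Slc39a14, Mt1 or Mt2 was not tested. Nor was the part of the muscle and squamous epithelium RNA in the changes of any member, among them Slc39a4 and Slc30a10.

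For 3 members, the genes of most similar profile were looked up among 6223 others with a mean of at least 10 CPM. Similarity was the root mean square difference of log2 CPM over the 8 libraries after each gene was centred, so it reflects the size of the change and the spread of single libraries. Closest to Mt1 were Gsta3 (0.08), the acute phase gene Orm1 (0.08), Ehd3 (0.08), Tmem87b (0.09) and Ctsc (0.09), where the median distance was 0.35. Closest to Slc39a14 were the acute phase gene Apcs (0.06), Cyp2c70 (0.06), AW112010 (0.07), the complement gene C1qb (0.08) and the acute phase gene Itih4 (0.08), with a median of 0.50. For Mt2 they were AW112010 and Snord13 (0.14 each), the interferon-induced gene Ifi47 (0.14), Cyp2a5 (0.16) and Ctss (0.17), with a median of 0.56. Mt2 was the 701st closest gene to Mt1 and Mt1 the 47th closest to Mt2, at a distance of 0.23. Genes that changed with the diet by a like amount are close by this measure whatever their function.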

How the data were processed

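RNA of 8 livers was measured and grouped by the sample labels. Per the labels, the study's methods and the file headers, the authors aligned trimmed reads to GRCm39 (STAR 2.7.9a) and assigned them to exons of GENCODE vM33 (featureCounts 1.6.0). The deposited values are raw counts per gene. No strand, multi-mapping or overlap option was set, so reads shared by overlapping genes were left out. The sources used here do not state whether molecular identifiers were collapsed, and counting intervals cover counting error only.

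GENCODE vM39 named 56323 of the 56884 identifiers. Genes under 5 counts in over 50% of libraries, in DIO as well as in DIO + DHA, were left out. Differences were tested by quasi-likelihood in edgeR 4.0.16 (R 4.3.3) with TMM scaling, robust dispersions and Benjamini-Hochberg adjustment over all tested genes. The standard error is the log2 fold change divided by the root of F. Alternatives used DESeq2 1.42.0, limma 3.58.1 (voom, prior proportion 0.01), other scalings and filters, a replicate block, and each library left out in turn. The fit was tested on simulated data. Named are all members, at most 4 abundant genes from each list, genes behind a count of 5 or fewer, and others picked after their values were seen (Il6ra, Stat3, Socs3, Il6st, Nr3c1, Sod2, Slc39a1, Slc39a13 and Sod1, and Alb and Orm1 for their order). Members and lists were chosen with earlier results of these data known. The mice were housed 5 per cage, and which cage is not given. The p-values set the difference of the groups against the spread between these libraries only, which edgeR estimates in part from other genes.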

Additional observations from a re-analysis of the deposited data

How the results depend on the processing

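The calls of Mt1, Mt2, Slc39a14 and Slc30a10 and the direction of all 8 members were the same in every alternative run. Across scalings, tests, filters and the block, the log2 fold change was -0.61 to -0.57 for Mt1, -1.10 to -1.01 for Mt2, -0.98 to -0.95 for Slc39a14 and 0.81 to 1.01 for Slc30a10. When each library was left out in turn, it was -0.63 to -0.48, -1.12 to -0.92, -0.97 to -0.93 and 0.86 to 1.15. For the members not called, leaving out a library gave -0.45 to -0.20 for Mtf1, 0.25 to 0.59 for Slc39a8 and 0.25 to 0.38 for Slc30a1, with no call gained, and the replicate block gave -0.03 for Mtf1. The number of members called was 4 to 5 in both kinds of alternative, the difference turning on Slc39a4 alone. The log2 ratio of Mt1 to Mt2 differed by 0.42 to 0.51 with 1 library left out, and adding 0.5 to each count left the difference at 0.46. With 1 library left out, the exact permutation p-values were at most 0.0476. Each was the smallest p possible for its group sizes, so these p-values do not measure how stable the difference was. Among the other metal handling genes, Mt4 included, 3 were called in the main analysis, 1 to 4 with 1 library left out, 1 with the replicate block and 1 at a log-odds B above 0. The replicate numbers 1, 4 and 5 occur in both groups, but libraries of the same number did not deviate together (correlations from -0.05 to -0.01), so the numbers are taken as names. With the replicate block, 4 members were called, and Slc39a4 missed the threshold (log2 fold change 0.28, adjusted p = 0.0795 by edgeR). Genes with fewer than about 20 counts in DIO replicate 1, such as Mtf1 and Slc39a8, have wide intervals at this depth.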

Other observations

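Hamp, the gene of the iron hormone hepcidin, was at 242 ± 13.7 CPM (SD, n = 3) in DIO and 722 ± 55.4 CPM (SD, n = 5) in DIO + DHA (adjusted p = 2.46e-25 by edgeR's quasi-likelihood test). The groups did not overlap, with Hamp higher in 5 of 5 DIO + DHA libraries than in every DIO library. Slc39a14 and Slc11a2, whose products can also carry iron, were lower in the same libraries. The call of Slc39a14 held in every alternative run, while Slc11a2 lost its call without DIO replicate 4 and without DIO replicate 5.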
